A study of Homo sapiens with 10 samples.

Results

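The comparison set NTC2 against NTC1, the 2 stable LS180 lines that carry non-targeting guides in a study of RNASE1. Its members were chosen by their labels and are 4 of the 10 libraries in the series: libraries A and B of NTC2, and libraries A and B of NTC1. LS180 is an established human colorectal cancer line. The other 6 libraries came from the lines sg1, sg2 and sg3, which carry CRISPR interference guides against RNASE1. They entered the fit mainly to estimate the spread between libraries, and also the filter, the scaling and the shared A and B term. Contrasts that include the guide lines are given further below. All lines grew in DMEM with 10% FBS and received no drug. The labels leave unsaid whether a line is 1 clone or a pool of cells, and whether its libraries are separate cultures. The p-values thus measure the spread between these libraries, which may be technical.

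In CRISPR interference, a catalytically inactive Cas9 is brought to a promoter by a guide RNA and holds down transcription there. A non-targeting guide matches no promoter of the host, so such lines serve as controls that went through the same selection. Stable lines can still come to differ from each other, through the founding cells, growth or library preparation, and that difference is part of every comparison between lines.

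The libraries of NTC2 held 43103895 and 42328900 counts and those of NTC1 held 42611948 and 44724951 counts, close to the range of the guide libraries (39026564 to 45050950). All 15 colon epithelial markers examined were present, with a summed level of 7566 to 8424 CPM (depth-scaled counts) in NTC2 and 7253 to 8648 CPM in NTC1. The 7 endothelial markers summed to at most 0.284 CPM in NTC2 and 0.268 CPM in NTC1. The 9 fibroblast markers summed to 4.68 to 5.06 CPM in NTC2 and 4.03 to 4.09 CPM in NTC1, with COL1A2 and POSTN at 0. The 8 leukocyte markers summed to 42.8 to 44.1 CPM in NTC2 and 44.6 to 46.4 CPM in NTC1, most of it LYZ, with PTPRC at 0. The 7 markers of an embryonic kidney line summed to 15.5 to 16.003 CPM in NTC2 and 15.4 to 16.4 CPM in NTC1, mostly WT1 and PAX8, with NEFL and LHX1 at 0.

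RNASE1, the gene that the study targeted, encodes a secreted ribonuclease. The A and B libraries held 1.02 and 1.38 CPM in sg1, 3.36 and 3.75 CPM in sg2, and 1.66 and 1.57 CPM in sg3. They held 19.1 and 22.9 CPM in NTC2, against 16.4 and 23.7 CPM in NTC1. All 6 guide libraries lay below all 4 control libraries, as labelled, and the control lines overlapped with each other. Between the control lines the log2 fold change was 0.08 (SE 0.10, 95% interval -0.14 to 0.30; edgeR quasi-likelihood test, Benjamini-Hochberg adjusted p = 0.965). Against the mean of both control lines it was -4.09 in sg1, -2.52 in sg2 and -3.66 in sg3.

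The control lines differed in very few genes. Of 16411 genes tested, 1 was higher and 1 was lower in NTC2 at an adjusted p under 0.05, which is 0.0122% in all and 0.00609% in each direction. At an unadjusted p under 0.05 there were 831 genes (5.06%), of which 316 (1.93%) were higher and 515 (3.14%) lower. The higher gene was AC000120.3 and the lower one was U2AF1. Each shares its sequence or span with another annotated gene.

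U2AF1 encodes the small subunit of the U2 auxiliary factor, which recognises the 3′ splice site. It had 7.36 and 10.4 CPM in the A and B libraries of NTC2, against 13.6 and 25.6 CPM in those of NTC1. Both NTC2 libraries lay below both NTC1 libraries and below the guide libraries, which held 13.5 to 22.1 CPM. The log2 fold change was -1.12 (SE 0.15, edgeR quasi-likelihood test, adjusted p = 0.0377). U2AF1 spans bases 43092956 to 43107587 of chromosome 21 (GRCh38, minus strand), and U2AF1L5 is an annotated copy elsewhere on that chromosome. The coding sequences of transcripts ENST00000291552.8 and ENST00000610664.4 had 0 mismatches over 720 bases. The first 120 coding bases of each are shown because a read from them carries no letter that tells the copies apart. They come from the minus strand with exons joined (GENCODE release 29, GRCh38), from chr21:43104327-43107494 for U2AF1 and from chr21:6496005-6499172 for U2AF1L5, and no letter is in capitals because none differs.
U2AF1: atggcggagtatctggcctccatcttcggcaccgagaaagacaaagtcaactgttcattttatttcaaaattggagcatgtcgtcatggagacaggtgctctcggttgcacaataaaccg
U2AF1L5: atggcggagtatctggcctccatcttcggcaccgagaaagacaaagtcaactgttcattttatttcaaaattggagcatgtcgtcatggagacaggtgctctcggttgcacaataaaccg

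Summed over both copies, the difference between the lines was close to 0. The sum was 6070 counts in NTC2 A and 6166 in NTC2 B, against 6036 in NTC1 A and 6632 in NTC1 B. After scaling, the log2 ratio of NTC2 to NTC1 was -0.0023 in the A libraries and 0.014 in the B libraries. What differed was the share of the sum given to U2AF1, at 5.14% and 7.14% in NTC2 and 9.49% and 17.6% in NTC1, with 9.36% to 14.9% in the guide libraries. U2AF1L5 alone had a log2 ratio of 0.07 in the A libraries and 0.19 in the B libraries, against -0.89 and -1.29 for U2AF1. Most of the sum is U2AF1L5, so the sum by itself does not fix the level of U2AF1. The value of U2AF1 cannot be told apart from a different division of reads between identical copies.

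AC000120.3 (ENSG00000285953) is an annotated protein-coding gene on chromosome 7 from 92131774 to 92245924, minus strand. Its span takes in CYP51A1, an enzyme of cholesterol synthesis, and KRIT1, a gene of vascular integrity, both on the same strand. It had 60 and 52 counts in NTC2 and 0 and 0 in NTC1, while the guide libraries held 30 to 87. With a floor of 3 counts over both NTC1 libraries, it was 38.8-fold higher in NTC2 (edgeR quasi-likelihood test, adjusted p = 0.0352). That floor covers counting error only and not the division of reads between genes. By these counts NTC1 was the line that stood apart from the 4 others. The values of AC000120.3 were not whole numbers in 8 of the 10 libraries, as happens where reads fit more than 1 gene. A different division of reads between the overlapping genes was not tested. KRIT1 had 816 and 849 counts in NTC2, against 883 and 1089 in NTC1. KRIT1 alone had a log2 ratio of -0.12 in the A libraries and -0.24 in the B libraries. The sum of AC000120.3 and KRIT1 had a log2 ratio of -0.02 in A and -0.15 in B. CYP51A1 had 10980 and 10709 counts in NTC2 and 10876 and 11011 in NTC1.

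**Figure D1:**
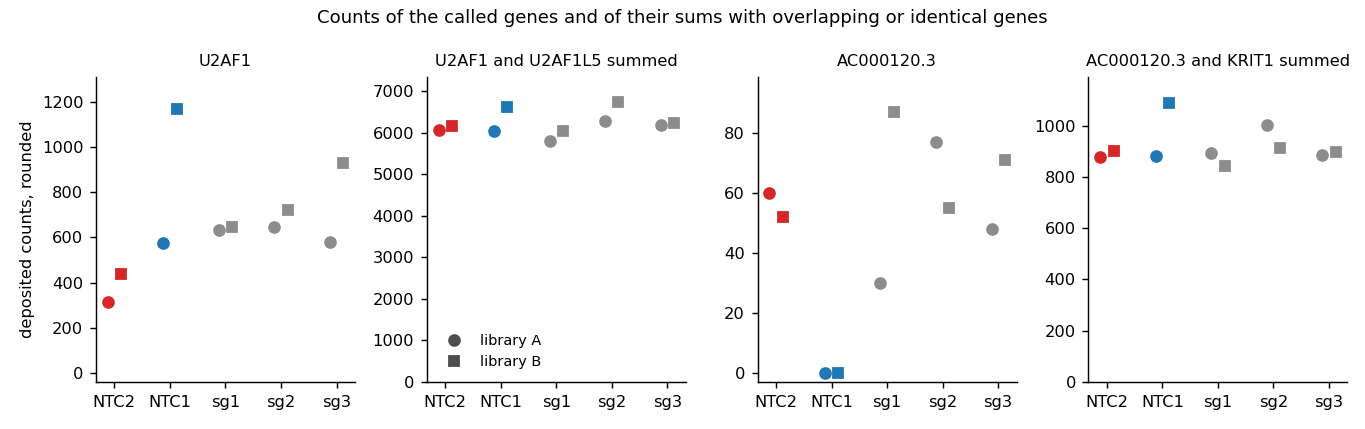
Deposited counts, rounded, in each library (circles A, squares B) of NTC2 (red), NTC1 (blue) and the guide lines (grey), for the called genes and for their sums with a gene that shares their sequence or span. U2AF1 is lowest in NTC2 and AC000120.3 is at 0 in NTC1, while U2AF1 and U2AF1L5 together hold 6070 and 6166 counts in NTC2 and 6036 and 6632 in NTC1.

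Reads that fit more than 1 gene leave values that are not whole numbers in the deposited table. Such values occurred for 26.5% of tested genes and for 25 of the 50 genes with the smallest p. The comparison was therefore repeated on the 12051 genes whose values were whole in all 10 libraries, a choice made after the data had been seen. There 12 genes (0.0996%) passed the edgeR quasi-likelihood test, with ALDH1A1 higher and 11 genes lower in NTC2. All of the genes described from here on were chosen after their values were seen, since the naming rule gave only RNASE1, U2AF1 and AC000120.3. None of them passed edgeR's quasi-likelihood test of NTC2 against NTC1 over all 16411 genes, whereas DESeq2 called H19 and MKI67 among 5 genes.

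ALDH1A1 encodes a retinaldehyde dehydrogenase that makes retinoic acid and marks some stem and progenitor cells. It had 291 and 472 CPM in NTC2, against 222 and 388 CPM in NTC1. Within each letter the NTC2 library was above that of all 4 other lines, and libraries B were above libraries A in every line. The log2 fold change was 0.34 (SE 0.06, 95% interval 0.21 to 0.46), with an adjusted p of 0.000387 among whole-value genes and 0.117 over all genes in edgeR's quasi-likelihood test.

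H19, an imprinted non-coding RNA that is abundant in fetal tissue, was lower in NTC2 among whole-value genes. It had 352 and 455 CPM in NTC2, against 439 and 540 CPM in NTC1. Within each letter NTC2 was the lowest of the 5 lines, although its B library lay above the A library of NTC1. The log2 fold change was -0.28 (SE 0.05, 95% interval -0.38 to -0.18), and edgeR's adjusted p was 0.000523 among whole-value genes and 0.0897 over all genes. DESeq2 gave an adjusted p of 9.94e-06 over all genes. The list of imprinted genes did not share a direction, with 12 of 24 tested members positive and a median of -0.0005. Of these, 3 higher and 2 lower members had an unadjusted p under 0.05, against 1.93% and 3.14% of all genes.

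Genes of mitosis were among the lower ones, but the mitotic list as a whole moved little. MKI67, which encodes the proliferation antigen Ki-67, had 81.4 and 112 CPM in NTC2, against 110 and 132 CPM in NTC1. CENPE, a kinetochore motor, had 18.6 and 19.99 CPM in NTC2, against 23.6 and 28.7 CPM in NTC1. CENPF, a kinetochore and matrix protein, had 97.8 and 131 CPM in NTC2, against 123 and 152 CPM in NTC1. In all 3 genes NTC2 was the lowest line within each letter. Their log2 fold changes were -0.33 (SE 0.07), -0.44 (SE 0.09) and -0.27 (SE 0.07), with adjusted p over all genes of 0.264, 0.273 and 0.485 in edgeR's quasi-likelihood test. For MKI67, DESeq2 gave an adjusted p of 0.00659. Of 40 tested genes of G2 and mitosis, 18 were positive and 22 negative with a median of -0.01, and 4 had an unadjusted p under 0.05, all lower (MKI67, CENPE, CENPF and ASPM), against 3.14% of all genes in that direction. The mitotic cyclin CCNB1 had a log2 fold change of 0.04 and the kinase AURKB one of 0.08, where the highest value in the list was 0.08. In both letters 13 members were lower and 5 were higher, against 4213 and 3855 of the 16411 tested genes. The list's median was negative in all 11 settings examined (-0.02 to -0.002). Replication genes had 25 of 40 members positive and a median of 0.02.

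Transcript length moved with the difference across the transcriptome. Among genes with a mean of at least 5 CPM over the 10 libraries, the median log2 fold change was 0.04 for transcripts of up to 1000 bases and -0.03 for those over 8000 bases. The 4 mitotic genes all have over 8000 annotated bases. With GC content and length corrected, their log2 fold changes were -0.30 for MKI67, -0.40 for CENPE, -0.24 for CENPF and -0.15 for ASPM, against -0.33, -0.44, -0.27 and -0.18 uncorrected.

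Another 5 of the whole-value genes encode matrix or cell surface proteins. VCAN, which encodes the matrix proteoglycan versican, had 69.2 and 62.9 CPM in NTC2, against 116 and 74.4 CPM in NTC1. The A library of NTC1 was the highest of all 10, and the log2 ratio was -0.74 in A and -0.24 in B. ADAM19, a membrane metalloprotease, had 36.2 and 15.4 CPM in NTC2, against 51.1 and 25.3 CPM in NTC1. NTC2 was the lowest line within each letter, while libraries A exceeded libraries B in every line. The protocadherin PCDH7 had 17.3 and 20.9 CPM in NTC2, against 22.8 and 26.0 CPM in NTC1, and the guide libraries held 22.9 to 26.9 CPM. The netrin receptor UNC5B had 6.87 and 5.96 CPM in NTC2, against 10.3 and 8.79 CPM in NTC1. NTRK2, the receptor of brain-derived neurotrophic factor, had 3.47 and 3.18 CPM in NTC2, against 7.28 and 4.83 CPM in NTC1. For VCAN, PCDH7, UNC5B and NTRK2 all NTC2 values lay below all NTC1 values. The guide libraries held 6.26 to 8.50 CPM for UNC5B, below both NTC1 libraries, and 3.21 to 5.64 CPM for NTRK2. The mean of the guide lines lay nearer to NTC2 for VCAN, UNC5B and NTRK2, and nearer to NTC1 for ADAM19 and PCDH7. The log2 fold changes were -0.50 for VCAN, -0.58 for ADAM19, -0.35 for PCDH7, -0.57 for UNC5B and -0.85 for NTRK2. The list of mesenchymal genes had 7 of 15 tested members positive and 8 negative, a median of -0.08, and 1 with an unadjusted p under 0.05.

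The last 2 whole-value genes were AKAP9, a scaffold of protein kinase A, and ZIM3, a KRAB zinc finger gene. AKAP9 had 29.01 and 40.7 CPM in NTC2, against 37.2 and 50.7 CPM in NTC1. ZIM3 had 11.4 and 20.2 CPM in NTC2, against 15.3 and 27.7 CPM in NTC1, and 16.1 to 25.8 CPM in the guide libraries. The KRAB domain of ZIM3 is used in some CRISPR interference repressors; the repressor used here is not given in the sources used here, and the origin of these reads was not tested. The log2 fold change of ZIM3 was -0.44 (SE 0.10), whereas KRAB zinc finger genes had a median of -0.04, with 31 of 82 positive.

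**Figure D2:**
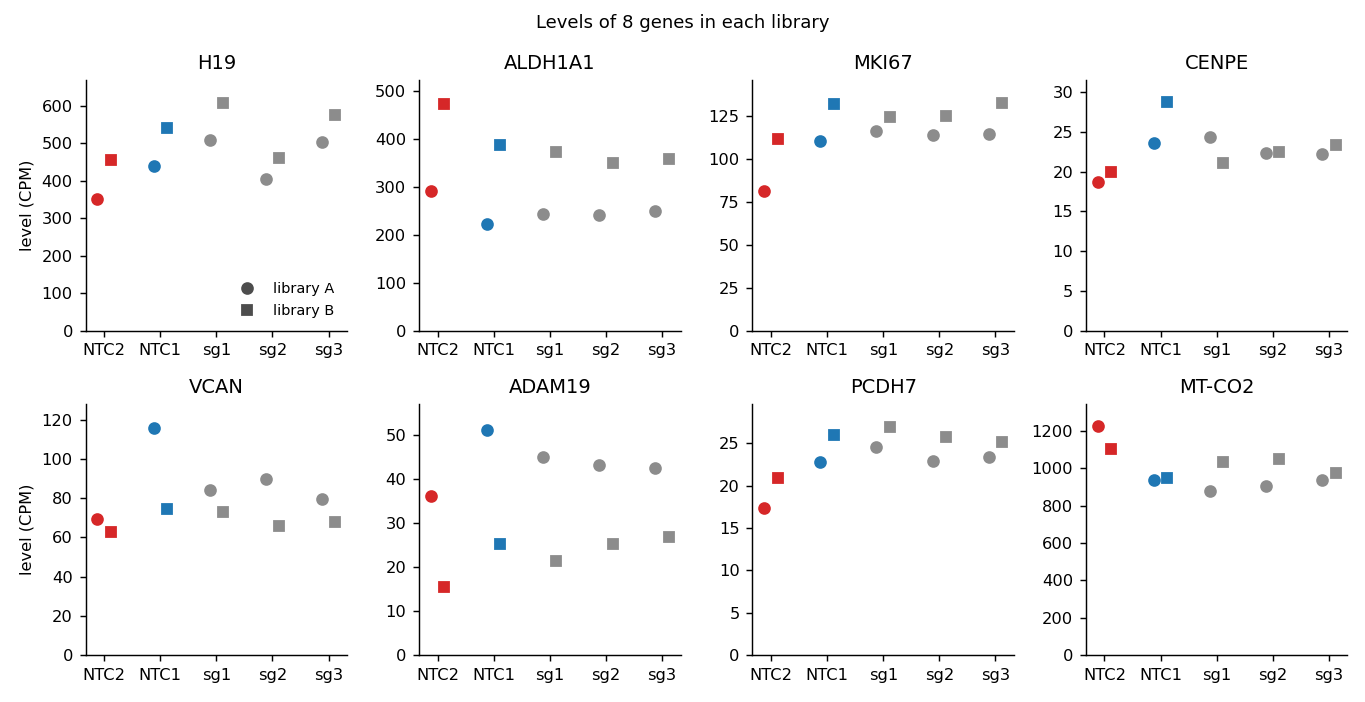
CPM in each library (circles A, squares B) of NTC2 (red), NTC1 (blue) and the guide lines (grey) for 8 genes. Within each letter NTC2 is the lowest line for H19, MKI67, CENPE, VCAN, ADAM19 and PCDH7 and the highest for ALDH1A1 and MT-CO2, and the letter shifts ALDH1A1 and ADAM19 more than the line does.

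Messages of the mitochondrial genome, which encodes core subunits of the respiratory chain and ATP synthase, had the largest median of any list with 10 or more tested genes. All 13 were positive with a median log2 fold change of 0.25, and 10 had an unadjusted p under 0.05, against 1.93% of all genes in that direction. None passed the adjusted test. MT-CO2, a cytochrome c oxidase subunit, had 1228 and 1105 CPM in NTC2, against 937 and 947 CPM in NTC1, a log2 fold change of 0.31 (SE 0.07, edgeR quasi-likelihood test, adjusted p = 0.416). MT-CO3 had 1804 and 1563 CPM in NTC2, against 1458 and 1294 CPM in NTC1. MT-ND5 had 406 and 465 CPM in NTC2, against 371 and 468 CPM in NTC1, the smallest difference of the 13. The NTC2 libraries were thus higher for most of these messages, more in A than in B, where the list's median ratios were 0.31 and 0.17.

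The mitochondrial genome took 1.54% and 1.39% of counts in NTC2 and 1.30% and 1.254% in NTC1. The guide libraries ranged from 1.17% to 1.42%, and the B library of sg1 lay above that of NTC2. NTC2 was the highest line within both letters for only 2 of the 13 messages, MT-CO2 and MT-ND3. All of these messages but MT-ND6, which lies on the other strand, are co-transcribed and polyadenylated in the organelle. The 13 values are thus not independent. Nuclear genes of oxidative phosphorylation had a median of 0.05 with 29 of 34 positive, and cytosolic ribosomal protein genes a median of 0.06 with 75 of 78 positive. No ribosomal protein gene had an unadjusted p under 0.05, and their values ran from -0.01 to 0.11. Over all tested genes, 8200 were positive and 8211 negative. Among genes of at least 5 CPM, however, the median was 0.043 for transcripts of up to 1000 bases. It was 0.035 for those of 1000 to 2000 bases. The part of transcript length in the medians of these lists was not tested.

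Programmes of the intestinal epithelium differed little. Of 31 goblet and secretory genes tested, 24 were positive with a median of 0.09, and 3 had an unadjusted p under 0.05, all higher, against 1.93% of all genes in that direction. AGR2, a disulfide isomerase needed for mucin folding, had 621 and 662 CPM in NTC2, against 578 CPM in each NTC1 library, a log2 fold change of 0.15 (SE 0.04, edgeR quasi-likelihood test, adjusted p = 0.644). MUC2, the gel-forming mucin of the colon, had 84.7 and 150 CPM in NTC2, against 82.8 and 121 CPM in NTC1. AGR2 was higher in both NTC2 libraries than in all others, whereas MUC2 differed mainly in the B libraries. The gastric mucin MUC5AC and the mucin MUC5B had log2 fold changes of -0.16 and -0.09. CLCA1, a secreted goblet cell protein, had 0.519 and 1.33 CPM in NTC2, against 0.0476 and 0.481 CPM in NTC1, too few counts for a firm size.

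Wnt targets and stem cell genes were negative in 22 of 28 cases, with a median of -0.02 and values from -0.57 to 0.49. An unadjusted p under 0.05 was found for 4 lower and 1 higher members, against 3.14% and 1.93% of all genes. NKD1, a feedback inhibitor of Wnt signalling, had 113 and 134 CPM in NTC2, against 136 and 147 CPM in NTC1, a log2 fold change of -0.20 (SE 0.05). AXIN2, another feedback inhibitor, had 242 and 259 CPM in NTC2, against 254 and 287 CPM in NTC1. RGMB, a co-receptor of bone morphogenetic proteins, went the other way, with 98.4 and 148 CPM in NTC2, against 85.4 and 128 CPM in NTC1. The list thus held differences of both signs, and its median was positive in the B libraries (0.003) and negative in the A libraries (-0.07). OLFM4, a stem cell glycoprotein, had 261 and 677 CPM in NTC2, against 246 and 610 CPM in NTC1. Its B libraries were far above its A libraries in both control lines, while the lines differed by 0.12 (SE 0.14).

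Homeobox cluster genes, which record position along the body axis, had 14 of 18 tested members negative and a median of -0.11, which ran from -0.15 to -0.03 with 1 library left out. An unadjusted p under 0.05 was found for 3 members, all lower, against 3.14% of all genes. HOXA5 had 1.37 and 1.85 CPM in NTC2, against 2.57 and 2.67 CPM in NTC1, and HOXA7 had 22.4 and 21.3 CPM in NTC2, against 24.4 and 25.3 CPM in NTC1. The most abundant members differed less, with log2 fold changes of -0.05 for HOXA9 and -0.02 for HOXA10. Immediate early and MAPK feedback genes had 27 of 36 members negative and a median of -0.03, with 1 unadjusted p under 0.05 (FOSL2, -0.11). NRF2 targets had 28 of 32 members positive and a median of 0.06, but the median was -0.02 in the A libraries and 0.10 in the B libraries. Genes of p53 response, heat shock and interferon response had medians of -0.003, 0.001 and 0.01.

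**Figure D3:**
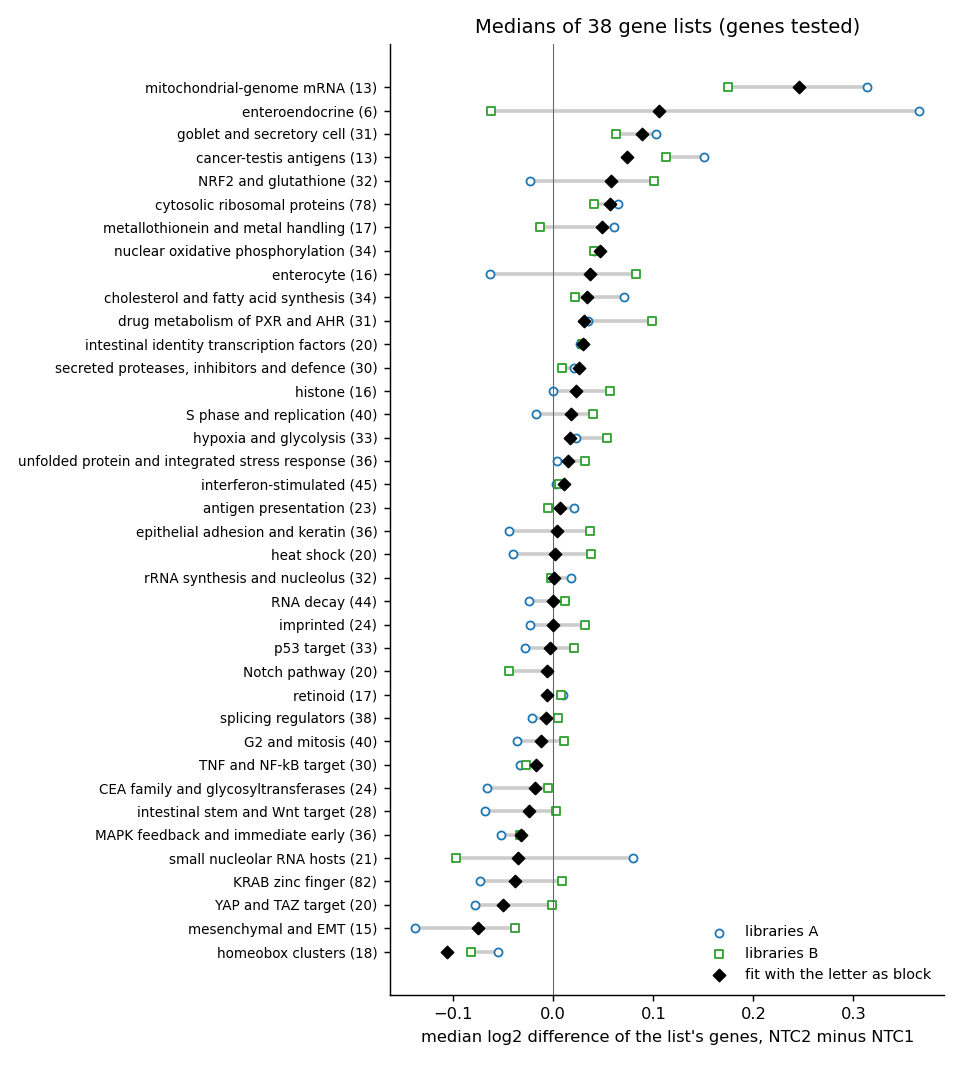
Median log2 difference of the genes tested in each of 38 lists (number in brackets), for libraries A (circles), libraries B (squares) and the fit with the letter as block (diamonds). The mitochondrial-genome messages lie at 0.25 and homeobox genes at -0.11, and for many lists the letters fall on opposite sides of 0.

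The letters did not share a pattern across genes. The NTC2 to NTC1 log2 ratio in A and that in B had a Spearman correlation of -0.03 over 10757 genes with a mean of at least 5 CPM, given as a description since the genes of a library share its composition. Signs matched for 48.3% of genes. After correction for GC content and length, the Spearman correlation was 0.08 and signs matched for 52.9%. GC content ran with the ratio in opposite directions, with a Spearman correlation of 0.39 in A and -0.32 in B. Transcript length ran with it downwards in both, at -0.32 in A and -0.10 in B. About as many genes thus had the same sign in A and B as had opposite signs. The part of library preparation was not tested.

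**Figure D4:**
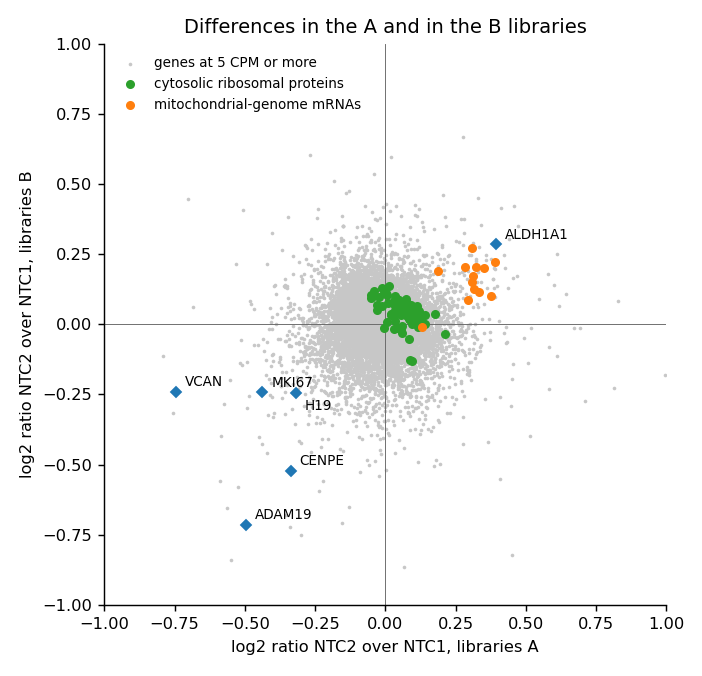
Log2 ratio of NTC2 to NTC1 in the A libraries (x axis) and in the B libraries (y axis) for genes with a mean of at least 5 CPM in the control lines; 13 genes beyond the axes are not drawn. The cloud has no slope, while 12 of 13 mitochondrial messages (orange), most ribosomal protein genes (green) and the named genes (blue) are on 1 side of 0 in both. The blue genes were picked from a fit over both letters, which itself favours the same sign in both.

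No chromosome region stood out. In 282 windows of 10 Mb with at least 10 genes, median log2 fold changes ran from -0.05 to 0.07, and 0 windows exceeded 0.1 in either direction. Chromosome medians lay between -0.01 and 0.01 for every nuclear chromosome examined.

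The size of differences between the control lines depended on the level of the gene. In 95% of genes the absolute log2 fold change was at most 0.55 at 1 to 5 CPM, 0.26 at 5 to 20 CPM, 0.13 at 20 to 100 CPM, 0.09 at 100 to 1000 CPM and 0.13 above that, by mean level in the 4 control libraries. As folds these limits were 1.46, 1.19, 1.10, 1.07 and 1.09. Of 10738 genes with at least 5 CPM in those libraries, 14 exceeded 0.5 and 1 exceeded 1, namely U2AF1. The 95% interval of the difference lay within 1.5-fold for 10643 of them (99.1%) and within 1.2-fold for 8581 (79.9%). For 5 genes it lay wholly beyond 1.2-fold (U2AF1, ADAM19, VCAN, UNC5B and AC005538.2, all lower in NTC2), and for the other genes it took in that limit. These intervals are not adjusted for the number of genes. The adjusted test against a fold of 1.2 (glmTreat) called 0 genes lower in NTC2.

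**Figure D5:**
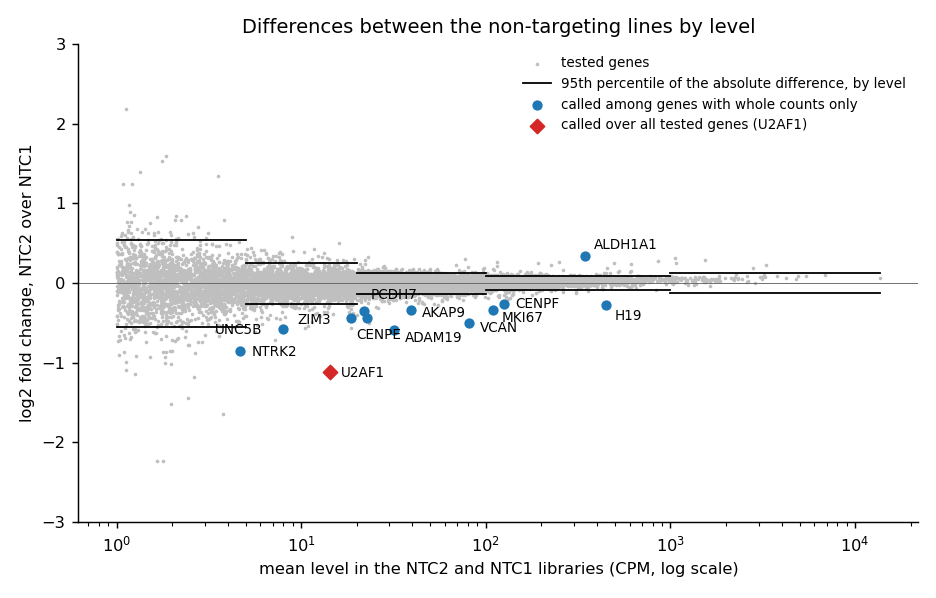
Log2 fold change of NTC2 over NTC1 against mean CPM in both lines for genes of at least 1 CPM, with the 95th percentile of the absolute difference in each range of levels (black); 3 genes beyond 3 and AC000120.3, which averaged under 1 CPM, are not drawn. U2AF1 (red) at -1.12 and the 12 genes called among whole-value genes (blue) lie outside those limits.

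Other pairs of lines gave numbers of called genes of the same order in the same fit. Which genes passed beside RNASE1 differed with the control line used. Against NTC1, 4 genes passed in sg1 (0.0244%), 2 in sg2 (0.0122%) and 4 in sg3 (0.0244%), and RNASE1 and AC000120.3 passed in each. Against NTC2, 7 passed in sg1 (0.0427%), 3 in sg2 (0.0183%) and 2 in sg3 (0.0122%), and AC000120.3 passed in none of them. At an unadjusted p under 0.05, sg1, sg2 and sg3 had 952, 843 and 867 genes against NTC1, and 1375, 1131 and 1342 against NTC2. H19 passed as higher against NTC2 in sg1 (log2 fold change 0.47, edgeR quasi-likelihood test, adjusted p = 0.000965) and in sg3 (0.43, adjusted p = 0.00333), and it was not called against NTC1. PCDH7 (0.43), AL138752.2 and the transcription factor TBX2 (0.95) passed as higher in sg1 against NTC2, and OLFM4 (-0.94) as lower. PLA2G2A, a secreted phospholipase of Paneth cells, passed as lower against NTC2 in sg1 (-0.33) and sg2 (-0.35). The guide comparisons share these control libraries, so the recurrence of a gene is no separate evidence, and the difference between the calls was tested only as NTC2 against NTC1.

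Guide lines differed from each other to a similar extent. For sg2 over sg1, 3 genes passed (0.0183%), namely RNASE1, the cancer-testis antigen GAGE1 and H19. For sg3 over sg2, 6 passed (0.0366%), among them H19 (0.32), PLA2G2A (0.30) and SULT1A3, a sulfotransferase with a near-identical copy. For sg3 over sg1, edgeR's quasi-likelihood test called 0 (0.0%), with 670 genes at an unadjusted p under 0.05. H19 thus passed between lines that all carry RNASE1 guides as well as between guide lines and NTC2. The SD of the log2 fold change over genes of at least 5 CPM was 0.086 for NTC2 over NTC1, within the range of 0.079 to 0.104 over all 10 pairs. The pairs share lines, so their counts are not independent.

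A contrast of each control line with the mean of the 4 other lines, added after the data had been seen, gave 6 genes for NTC2 (0.0366%) and 2 for NTC1 (0.0122%). RNASE1 was called in both, since 3 of the 4 other lines carry guides against it. The other 5 genes for NTC2 were ALDH1A1 (0.32), H19 (-0.32), PCDH7 (-0.37), U2AF1 (-0.95) and AL138752.2, which had 0 counts in both NTC2 libraries. The other gene for NTC1 was AC000120.3. At an unadjusted p under 0.05 the contrast gave 1363 genes for NTC2 and 817 for NTC1. Each guide line set against the 4 other lines in the same way gave 773 to 947. Among the 12 genes of at least 5 CPM with the smallest p in each direction between the control lines, the mean of the guide lines lay nearer to NTC1 for 10 of the higher and 8 of the lower ones. These genes were picked on the same contrast, so the counts are a description.

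Line comparisons of single genes can be set beside these limits, for example SOD3 and TNS4, chosen after their values were seen. SOD3, which encodes extracellular superoxide dismutase, had 70.4 to 82.2 CPM in the guide libraries, against 69.0 and 54.5 CPM in NTC2 and 71.4 and 57.4 CPM in NTC1. TNS4, a tensin of focal adhesions, had 642 to 767 CPM in the guide libraries, against 661 and 550 CPM in NTC2 and 656 and 593 CPM in NTC1. Within each letter all 3 guide libraries lay above both control libraries for both genes, and the ranges overlapped only across letters. Neither gene was called by edgeR's quasi-likelihood test in any guide line against NTC1 alone or against NTC2 alone. Between the control lines the log2 fold changes were -0.06 for SOD3 (SE 0.07) and -0.05 for TNS4 (SE 0.04). The 95% limits for their levels were 0.13 and 0.09. Those limits come from this same contrast, so most genes lie inside them by construction. Against the mean of the 4 other lines, SOD3 had a log2 fold change of -0.23 in NTC2 and -0.15 in NTC1. TNS4 had -0.19 in NTC2 and -0.13 in NTC1. None of these was called, and that mean includes the other control line.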

How the data were processed

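The values are expected counts of each gene in a single table deposited by the authors, which names RSEM as their source; per the submitters' processing notes the build was hg38, with CASAVA 1.8.2, TopHat2 2.0.8 and FastQC 0.11.2. RSEM divides reads that fit several genes, and the library procedure in the labels does not mark strand, so counts of genes with overlaps or copies are uncertain. Of the values for 58870 genes, 7.12% were not whole, and all were rounded. Positions, lengths and GC content come from GENCODE release 29 on GRCh38, which held 58597 of the identifiers.

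The test was the two-sided quasi-likelihood F test of edgeR 4.0.16 in R 4.3.3 (limma 3.58.1; glmQLFit defaults, TMM, filterByExpr) over all 10 libraries, with line and letter as terms and 4 residual degrees of freedom. P-values were adjusted by Benjamini-Hochberg across the genes tested, and genes under 0.05 were called. It was tested on simulated data. CPM values are TMM-scaled, except in sums over markers. Within-letter ratios used a prior count of 0.5 and have no test. SE was computed from the fold change and F, and intervals are 95%.

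The letter was kept as a block because deviations from line means correlated between same-lettered libraries in all 10 pairs of lines (Pearson 0.405 to 0.702 at 5 CPM or more, 0.0337 to 0.147 over all genes); the labels do not say what the letter marks. The libraries of each control line differed by about 22.0 times the sampling variance, more than counting noise alone; whether they are separate cultures is not shown by this. Floors and intervals of counts cover counting error only.

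The 4 libraries, the 43 gene lists (5 of them cell type markers) and the tests were chosen with earlier results of these data known. Named genes were RNASE1 and, by rule, called genes with the largest change, smallest p, list membership or 0 counts in a line. Alternatives were DESeq2 1.42.0, other scaling, filters, GC and length correction, fits without the block and each library left out.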

Additional observations from a re-analysis of the deposited data

How the results depend on the processing

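The count of called genes depended strongly on the design. Without the letter as replicate block 0 genes were called (282 at an unadjusted p under 0.05), 0 higher and 0 lower. With the 4 control libraries alone, 101 were called with the replicate block (39 higher, 62 lower), on 1 residual degree of freedom, and 0 without it. DESeq2 called 5 (4 lower), its size factors in edgeR 2. Without a filter on low counts 144 were called (59 higher, 85 lower), and with a mean of at least 5 CPM 1 (0 higher). With GC correction in the block fit 0 were called (0 higher, 0 lower; 997 at an unadjusted p under 0.05), and with GC and length correction 2. Against a fold of 1.2 (glmTreat) 1 was called, 0 lower. Genes with whole values gave 12, of which 11 lower. Leaving out 1 library gave 1 to 5 calls (0 to 2 higher, 1 to 3 lower). U2AF1 was not called without NTC2 A, NTC2 B or NTC1 B, and AC000120.3 was not called without NTC2 A, NTC1 A or NTC1 B. Without NTC2 B, MT-CO2 was called (0.45), with H19 and MKI67. Without NTC1 B, VCAN was called. No setting reversed U2AF1 or AC000120.3; the causes were not tested. Without the replicate block the other pairs gave 1 call for each guide line against each control line, and 0 for sg2 over sg1 and for sg3 over sg2.

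The median of the mitochondrial messages was positive in all 11 settings examined (0.11 to 0.38), as were those of ribosomal protein genes (0.003 to 0.10) and goblet genes (0.04 to 0.10). The homeobox median ran from -0.15 to -0.03, the Wnt median from -0.08 to 0.02, and the NRF2 median from -0.009 to 0.10. With 2 libraries a line, differences of under 1.2-fold could not be placed for most genes under 20 CPM.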

Other observations

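Outside the groups above, AL138752.2, an annotated protein-coding gene on chromosome 9, had 0 counts in both NTC2 libraries. It had 1.12 and 1.55 CPM in NTC1 and 0.614 to 3.03 CPM in the guide libraries. It passed DESeq2's test between the control lines but not edgeR's quasi-likelihood test (adjusted p = 0.0897). Genes of drug metabolism had 19 of 31 members positive, with values from -1.10 to 1.24. An unadjusted p under 0.05 was found for 5 higher and 1 lower members, against 1.93% and 3.14% of all genes. SULT1A3, a sulfotransferase with a near-identical copy, had 1.72 and 1.31 CPM in NTC2, against 0.785 and 0.503 CPM in NTC1, and the guide libraries ranged from 0.633 to 4.51 CPM, so its level varied more among the guide lines than between the control lines. UGT1A10, a glucuronosyltransferase whose exons overlap those of its family, had 58.2 and 90.7 CPM in NTC2, against 51.2 and 76.0 CPM in NTC1, a log2 fold change of 0.22 (SE 0.06, adjusted p = 0.602). The guide libraries of UGT1A10 held 56.8 to 88.7 CPM.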
